A study of Mus musculus with 12 samples.

Results

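The unfolded protein and Atf4 stress genes described here are 10 genes, of 18193 with a single-gene probe set on the array. They were taken by symbol, with earlier results of these data known. Each is represented by its brightest probe set on average over the arrays. All 10 passed the signal filter that left 11345 genes for testing, although Sesn2 passed it narrowly, with a mean of 4.01 on the log2 scale against the filter of 3.78. Skeletal muscle of 12 mice was hybridised to 1 array per mouse, and levels are given as log2 signals. Ffar4 encodes GPR120, through which cells sense long-chain fatty acids. The 4 groups were GPR120 KO on a high fat diet (HFD), GPR120 KO on a normal diet (ND), wild type (WT) on HFD and wild type on ND, with 3 mice each. All mice were 16 weeks old and on a mixed background of 129/Sv and C57BL/6. The sources used here give neither the deleted part of the gene nor which muscle was taken nor the sex of the mice, and mouse numbers of the groups fall in separate ranges, so that group and cohort cannot be told apart. Skeletal muscle is a mixture of fibres and other cells, and the p-values measure the spread between these mice.

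The genes belong to linked arms of one stress response. Unfolded protein in the endoplasmic reticulum (ER) activates the sensors Ern1 (IRE1), Atf6 and Eif2ak3 (PERK). IRE1 splices the mRNA of Xbp1, and Xbp1 and Atf6 then raise ER chaperones and degradation factors. PERK and related kinases phosphorylate eIF2α, which favours translation of Atf4, and Atf4 raises genes of amino acid supply and of cell stress. In muscle the second arm also answers mitochondrial stress and amino acid shortage. The ER arm here is Xbp1, the chaperone Hspa5 (BiP), its partner Sdf2l1 and the ER degradation factor Herpud1. The Atf4 arm is Atf4, the transcription factor Ddit3 (CHOP), the glutathione-degrading enzyme Chac1, the pseudokinase Trib3, the asparagine synthetase Asns and the stress protein Sesn2.

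Promoter windows of 4 genes are shown because these genes stand for the patterns described below. Hspa5 and Sdf2l1 had the largest KO minus WT differences of the ER arm, Herpud1 was lower on the high fat diet, and Chac1 was lower both on the high fat diet and in KO. Each window runs from 250 bases before to 50 after the annotated transcription start, in RefSeq's GRCm38.p6, 5′ to 3′ on the gene's strand. All 10 members matched an entry. Capitals mark matches to the ER stress response element (CCAAT and CCACG with 9 free bases between them), to the element ERSE-II (ATTGG and CCACG with 1 free base between them), to their shared part CCACG, and to the C/EBP-ATF composite element TGATGNAA, searched on both strands. A match on the other strand reads as its reverse complement, so that CCACG appears as CGTGG.
Hspa5, chr2:34771840-34772139, + strand: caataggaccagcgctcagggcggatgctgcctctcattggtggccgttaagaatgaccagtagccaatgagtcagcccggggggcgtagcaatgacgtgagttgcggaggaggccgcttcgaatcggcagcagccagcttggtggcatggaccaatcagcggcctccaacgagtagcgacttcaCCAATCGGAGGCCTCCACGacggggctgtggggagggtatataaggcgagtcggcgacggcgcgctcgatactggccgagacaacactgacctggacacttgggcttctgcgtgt
Sdf2l1, chr16:17132334-17132633, - strand: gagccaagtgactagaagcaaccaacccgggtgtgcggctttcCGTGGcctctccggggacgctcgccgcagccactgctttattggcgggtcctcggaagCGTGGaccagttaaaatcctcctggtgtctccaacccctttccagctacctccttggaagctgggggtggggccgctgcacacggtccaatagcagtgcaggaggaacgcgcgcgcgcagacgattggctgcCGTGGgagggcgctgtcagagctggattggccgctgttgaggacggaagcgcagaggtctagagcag
Herpud1, chr8:94386179-94386478, + strand: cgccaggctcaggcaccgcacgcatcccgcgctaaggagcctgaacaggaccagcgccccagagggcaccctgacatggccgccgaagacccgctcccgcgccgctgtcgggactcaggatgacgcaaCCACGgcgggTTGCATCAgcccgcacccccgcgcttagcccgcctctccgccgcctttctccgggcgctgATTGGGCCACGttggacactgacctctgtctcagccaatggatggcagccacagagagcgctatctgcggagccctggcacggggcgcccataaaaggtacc
Chac1, chr2:119350992-119351291, + strand: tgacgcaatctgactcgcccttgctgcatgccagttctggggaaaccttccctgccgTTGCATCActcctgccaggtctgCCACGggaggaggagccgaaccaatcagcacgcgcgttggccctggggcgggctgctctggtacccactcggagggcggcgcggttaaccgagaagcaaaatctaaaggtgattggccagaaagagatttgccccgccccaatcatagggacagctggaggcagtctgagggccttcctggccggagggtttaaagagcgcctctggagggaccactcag

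Asns and Trib3 hold the same C/EBP-ATF element as Chac1, and 60 bases around it are shown because these genes did not follow Chac1.
Asns, chr6:7693199-7693258, - strand: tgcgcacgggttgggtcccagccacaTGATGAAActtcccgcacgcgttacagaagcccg
Trib3, chr2:152344013-152344072, - strand: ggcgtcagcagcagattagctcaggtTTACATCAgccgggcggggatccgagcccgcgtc

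The full ER stress response element was found in 1 of the 10 member windows, that of Hspa5, and in 0.119% of all 32851 promoter windows of this length. ERSE-II was found in Herpud1 alone among the members and in 0.0365% of all windows. The C/EBP-ATF element was found in 4 members (Herpud1, Chac1, Trib3 and Asns) and in 3.97% of all windows. The CCACG part, which lies inside both longer elements, was found in 7 members and in 32.8% of all windows. Windows of Xbp1 and Ddit3 held none of these letters. The members were chosen as known genes of these stress arms, so the shares of all windows do not test enrichment. The matches are a description of the sequence, and binding was not measured here.

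**Figure D1:**
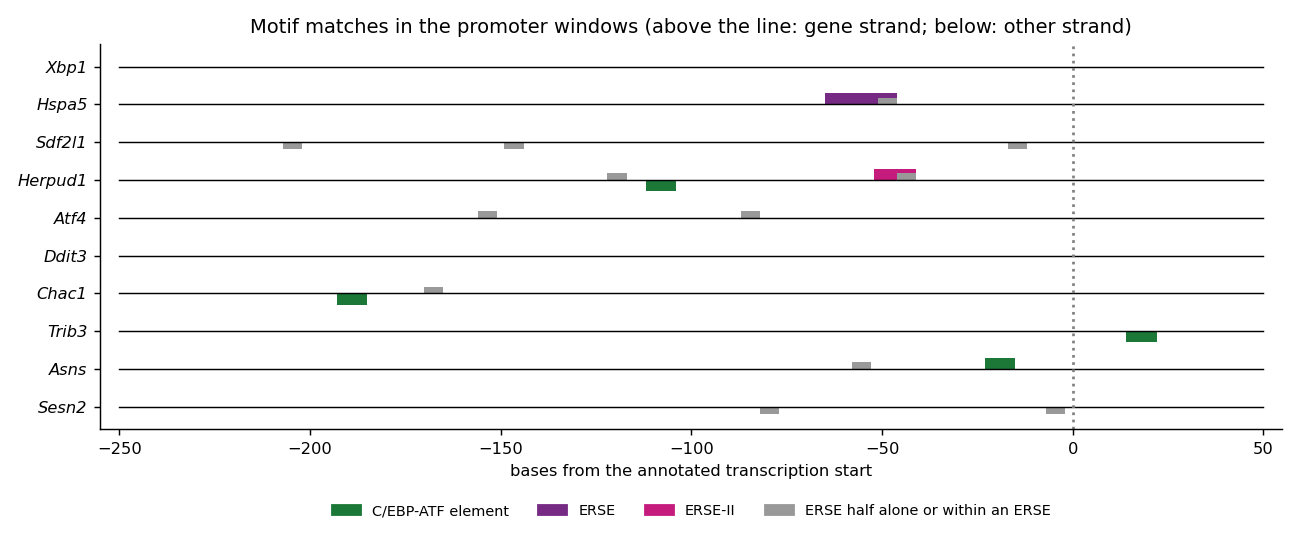
Motif matches in the 10 member promoter windows, by distance in bases from the annotated transcription start; blocks above a line are on the gene's strand and blocks below it on the other. The ER stress response element lies in Hspa5, ERSE-II in Herpud1, and the C/EBP-ATF element in Herpud1, Chac1, Trib3 and Asns.

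The targeted gene could not check the genotype labels. Its 1 probe set (Ffar4) had a mean of 1.61, below the filter, and read 0.98 to 3.19 in KO on HFD and 0.33 to 3.88 in KO on ND, against 0.56 to 2.40 in WT on HFD and −1.39 to 2.26 in WT on ND. These ranges overlap, and the sources used here do not place the probes relative to the deleted part. The muscle label was borne out by the arrays. A beta-actin measure of RNA integrity and markers of other cell types differed between the groups. All 8 skeletal muscle markers (such as Acta1, Ckm and Mylpf) were above the filter, and Mb alone passed a test, at 0.21 higher on the high fat diet. The 3′ over 5′ log2 ratio of the beta-actin and Gapdh controls averaged 0.16 ± 0.13 in KO on HFD, against 0.07 ± 0.06 in KO on ND (SD, n = 3 each). It averaged 0.18 ± 0.02 in WT on HFD, against −0.02 ± 0.09 in WT on ND. The diets overlapped in KO. Beta-actin alone averaged 0.55 in KO on HFD, 0.39 in KO on ND, 0.60 in WT on HFD and 0.22 in WT on ND. Gapdh alone was nearly flat, at −0.22, −0.24, −0.25 and −0.26 in the same order. Macrophage markers were highest in KO on HFD, where the summed linear signal of 7 genes was 3872 to 7266, against 1780 to 3815 in WT on HFD. On ND it was 2279 to 3011 in KO and 3160 to 3594 in WT. Fibroblast markers (6 genes) summed to 10338 to 14031 in KO on HFD, against 6494 to 9168 in WT on HFD, and adipocyte markers (5 of 7, the others having no single-gene probe set) to 15543 to 17192, against 8589 to 15447. Of 7 plasma cell markers, Tnfrsf17 and Pou2af1 were below the filter. The other 5 summed to 150 to 187 in KO on HFD and 85.7 to 147 in WT on HFD. In whole muscle, fewer cells of a type and less RNA per cell cannot be told apart.

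On the high fat diet Atf4 and Chac1 fell and Ddit3 rose, so that members of the Atf4 arm moved in opposite directions. In the ER arm Xbp1 and Herpud1 fell, while Hspa5 and Sdf2l1 did not pass. Members and gene lists were chosen with earlier results of these data known. Shares of all genes, here and below, are therefore given for comparison only and do not test the counts. Averaged over both genotypes, 5 of the 10 members passed in limma at an adjusted p of 0.05, where 13.7% of all genes tested did so. Of these, 1 was higher, as were 7.49% of all genes, and 4 were lower, as were 6.19%. Over all genes 850 were higher and 702 lower, and after median centring 345 were higher and 850 lower. When the 3′ over 5′ ratio was added as a covariate, Atf4 (−0.70, adjusted p = 0.00977) and Ddit3 (0.80, adjusted p = 0.0299) were the 2 members past the threshold.

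**Figure D2:**
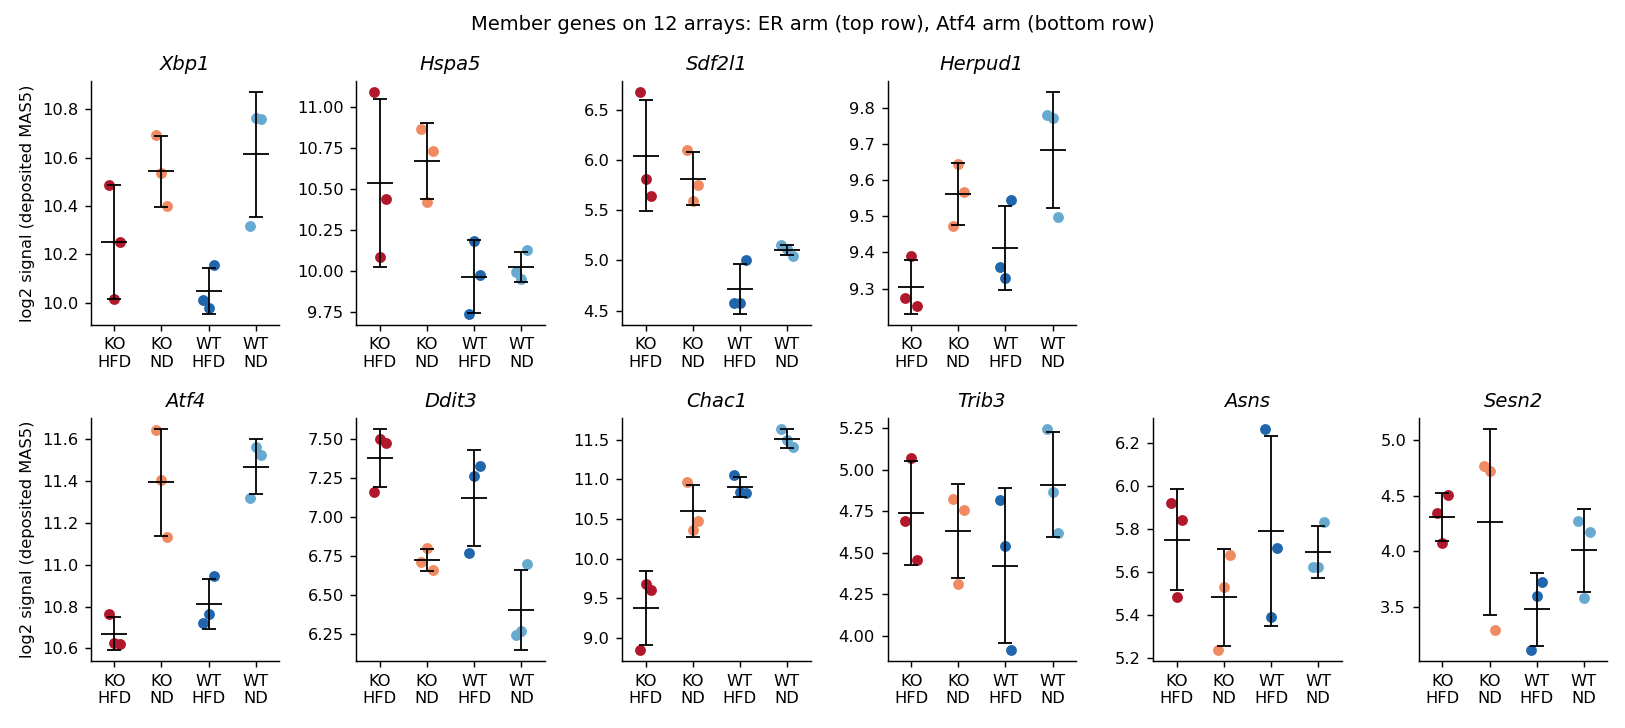
Log2 signal of each member on each of the 12 arrays, by group, with the ER arm in the top row and the Atf4 arm in the bottom row; dots are mice, the horizontal bar is the mean and whiskers are 1 SD (n = 3). Atf4 is lower on HFD in both genotypes, Ddit3 higher, Chac1 lower on HFD and in KO, and all 6 KO mice lie above all 6 WT mice for Sdf2l1; the vertical axes differ between panels.

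Atf4, the transcription factor that names its arm, had log2 signals of 10.76, 10.63 and 10.62 in KO on HFD, against 11.64, 11.41 and 11.13 in KO on ND. WT mice had 10.72, 10.76 and 10.95 on HFD, against 11.32, 11.56 and 11.52 on ND. All 6 mice on HFD were below all 6 mice on ND, a separation in that direction that 2.34% of all genes tested showed. The log2 difference between the diets was −0.72 ± 0.12 in KO (SE, adjusted p = 0.00493) and −0.66 ± 0.12 in WT (adjusted p = 0.00812), and the WT call was lost with the 3′ over 5′ covariate (−0.67, adjusted p = 0.0746). Averaged over genotypes it was −0.69 (95% interval −0.87 to −0.51, adjusted p = 0.000313), that is a level 0.620 times that on ND. A second probe set of Atf4, with a mean of 8.68, gave an averaged difference of −0.89 (adjusted p = 0.0162 over all probe sets). The array reads the mRNA, and the translation by which Atf4 is mainly controlled was not measured.

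Ddit3 encodes CHOP, a factor of the late stress response that Atf4 is known to activate, and it went the other way. It read 7.16, 7.50 and 7.47 in KO on HFD, against 6.71, 6.80 and 6.66 in KO on ND. In WT it read 6.77, 7.26 and 7.33 on HFD, against 6.24, 6.27 and 6.70 on ND. The diets did not overlap within either genotype. Averaged over both, the log2 difference was 0.69 ± 0.13 (adjusted p = 0.00394), a level 1.61 times that on ND. Within WT it was 0.72 (adjusted p = 0.0336), and within KO 0.65 (adjusted p = 0.0557). The WT call was lost in 9 of 24 alternatives (adjusted p up to 0.455). These were the fits without WT ND replicates 1 or 2, without WT HFD replicates 2 or 3, after median centring, without the intensity trend, with the 3′ over 5′ covariate, with the mean of all probe sets and with only the WT arrays. The KO difference passed in 6 alternatives (adjusted p 0.0214 to 0.0497), among them array weights and only the KO arrays. The averaged call was lost in 1 of 23 alternatives, with the mean of all probe sets (adjusted p = 0.243). The second Ddit3 probe set was below the filter, with a mean of 2.37, and gave an averaged difference of 1.07.

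Chac1, an enzyme that degrades glutathione and a known target of Atf4, changed most among the members in absolute log2 difference. It read 8.84, 9.68 and 9.604 in KO on HFD, against 10.97, 10.36 and 10.47 in KO on ND. WT mice had 11.05, 10.84 and 10.83 on HFD, against 11.64, 11.50 and 11.41 on ND. The diets did not overlap in either genotype, and on either diet the KO mice lay below the WT mice. On the high fat diet Chac1 fell by 1.23 in KO (SE 0.20, adjusted p = 0.00485). In WT the diet difference was −0.61 (adjusted p = 0.0857), and it passed with only the WT arrays fitted (adjusted p = 0.0157) and without KO HFD replicate 1 (adjusted p = 0.0230). Averaged over genotypes Chac1 was 0.529 times its ND level (log2 difference −0.92, adjusted p = 0.00131), and in the fit with the 3′ over 5′ covariate the difference was −0.62 (adjusted p = 0.0570).

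Trib3, Asns and Sesn2 each passed in 0 of 7 comparisons in limma, with 0 at an unadjusted p under 0.05. Trib3, a pseudokinase that binds Akt and is induced by Atf4, read 4.46 to 5.07 in KO on HFD and 4.31 to 4.83 in KO on ND, and 3.91 to 4.82 in WT on HFD and 4.62 to 5.25 in WT on ND. Its averaged diet difference was −0.19 (95% interval −0.67 to 0.29), with −0.49 in WT and 0.11 in KO. Asns, which makes asparagine and is a standard Atf4 target, read 5.48 to 5.92 in KO on HFD and 5.23 to 5.68 in KO on ND. In WT it read 5.39 to 6.27 on HFD and 5.62 to 5.83 on ND, and the averaged difference was 0.18 (95% interval −0.17 to 0.54). Sesn2, a leucine-sensing stress protein that restrains mTORC1, read 4.08 to 4.51 in KO on HFD and 3.29 to 4.77 in KO on ND, and 3.11 to 3.72 in WT on HFD and 3.58 to 4.27 in WT on ND. Its averaged diet difference was −0.24 (95% interval −0.91 to 0.43), with −0.53 in WT and 0.05 in KO. A second Sesn2 probe set, just below the filter at a mean of 3.77 and so not tested, gave −1.48 for the diet. For the genotype it gave 1.08. The second Trib3 probe set gave −0.45 for the averaged diet effect and −1.31 in WT (adjusted p = 0.484 and 0.176 over all probe sets). That of Asns gave 0.23 for the averaged diet effect (adjusted p = 0.682). The 95% interval of Sesn2 holds a fall as large as the rise of Ddit3, but not such a rise. That of Trib3 holds a fall like that of Xbp1. The interval of Asns holds a rise of that size, but not such a fall. Trib3, Asns and Sesn2 are the members whose signals lie nearest the filter, along with Sdf2l1, and their spread is the largest.

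Xbp1, the factor that drives ER chaperone and degradation genes, was lower on the high fat diet. It read 10.49, 10.02 and 10.25 in KO on HFD, against 10.69, 10.53 and 10.40 in KO on ND. WT mice had 10.01, 9.98 and 10.16 on HFD, against 10.32, 10.76 and 10.76 on ND. The diets were apart in WT and overlapped in KO. Xbp1 fell by 0.56 in WT (SE 0.14, adjusted p = 0.0329), and in KO the difference was −0.29 (adjusted p = 0.272), while the difference between these effects did not pass (0.27, adjusted p = 0.664). The WT call was lost in 8 of 24 alternatives (adjusted p up to 0.138). These were the fits without WT ND replicates 2 or 3, without WT HFD replicates 1 or 2, without the intensity trend, with the 3′ over 5′ covariate, with the mean of all probe sets and with only the WT arrays. The averaged difference was −0.43 (adjusted p = 0.0131), and it was lost in the fits with that covariate and with the mean of all probe sets. Of the other probe sets of Xbp1, those with means of 9.50 and 9.04 gave −0.53 and −0.42 (adjusted p = 0.0123 and 0.0248), and the dimmest gave −0.10 (adjusted p = 0.795). Splicing of Xbp1 by IRE1 was not measured here.

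Herpud1, an ER membrane protein of the degradation machinery, moved little and in the same direction as Xbp1. It read 9.27, 9.39 and 9.25 in KO on HFD, against 9.47, 9.65 and 9.57 in KO on ND. In WT it read 9.36, 9.33 and 9.54 on HFD, against 9.78, 9.77 and 9.50 on ND. The averaged difference was −0.26 ± 0.07 (adjusted p = 0.0313), a level 0.833 times that on ND, and neither genotype passed alone (adjusted p = 0.186 in KO and 0.138 in WT). Its second probe set gave −0.35 (adjusted p = 0.0215). The call was lost in 8 of the 12 fits that each left out 1 mouse, with the covariate and without the intensity trend (adjusted p up to 0.110).

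Between genotypes Sdf2l1 was higher in KO and Chac1 lower, and Hspa5 was higher in KO just short of the threshold. Sdf2l1, an ER luminal protein that works with BiP and its co-chaperones, read 6.68, 5.81 and 5.65 in KO on HFD, against 4.57, 4.58 and 5.003 in WT on HFD. On ND it read 6.10, 5.59 and 5.76 in KO, against 5.15, 5.12 and 5.05 in WT. All 6 KO mice were above all 6 WT mice, a separation in that direction that 0.529% of all genes tested showed. Averaged over diets Sdf2l1 rose by 1.02 in KO (SE 0.19, adjusted p = 0.0188), a level 2.03 times that in WT. On HFD alone the difference was 1.33 ± 0.27 (adjusted p = 0.0406), and that call was lost in 19 of 23 alternatives, each of the WT and KO HFD mice left out included (adjusted p 0.0393 to 0.168 over all 23). On ND it was 0.71 (adjusted p = 0.326). Of 22 alternatives the averaged call was lost in 1, without WT ND replicate 2 (adjusted p = 0.0510). Sdf2l1 has 1 single-gene probe set, so no other could check its differences. The averaged diet difference of Sdf2l1 was −0.08 (95% interval −0.49 to 0.33), and it joins opposite signs. In WT it was −0.39 (adjusted p = 0.417), with all HFD mice below all ND mice, and in KO 0.23 (adjusted p = 0.688). The difference between these effects did not pass (0.62, adjusted p = 0.598).

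Hspa5 encodes BiP, the ER Hsp70 chaperone whose release from the sensors starts the response. It read 11.09, 10.08 and 10.44 in KO on HFD, against 9.74, 10.18 and 9.97 in WT on HFD. On ND it read 10.86, 10.42 and 10.73 in KO, against 9.997, 9.95 and 10.13 in WT. The groups were apart on ND, and on HFD KO replicate 2 lay within the WT range. The averaged genotype difference was 0.61 ± 0.14, just outside the threshold (adjusted p = 0.0555), and it passed in 4 alternatives, among them without KO HFD replicate 2 (0.72, adjusted p = 0.0186). A second probe set, with a mean of 9.71, gave 0.65 (adjusted p = 0.0367 over 22518 probe sets), and the third, with a mean of 7.54, gave 0.10 (adjusted p = 0.788). The averaged diet difference of Hspa5 was −0.10 (95% interval −0.41 to 0.21).

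**Figure D3:**
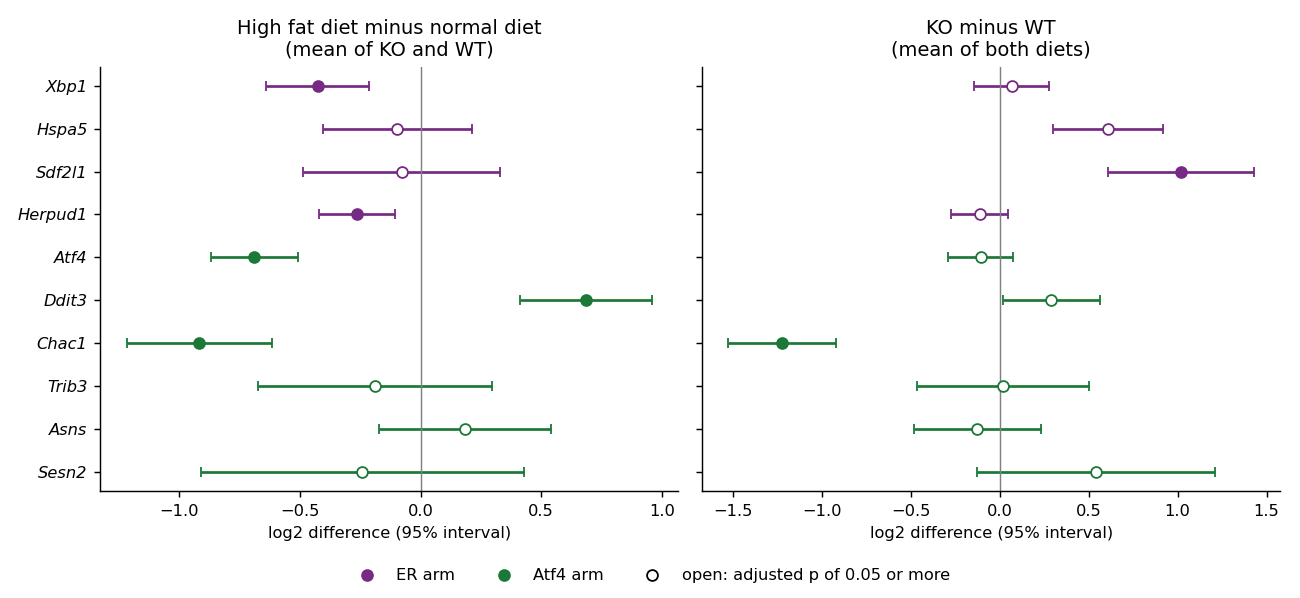
Log2 differences of the members with 95% intervals, high fat diet minus normal diet (left, mean of KO and WT) and KO minus WT (right, mean of both diets); filled points passed an adjusted p of 0.05. On HFD Xbp1, Herpud1, Atf4 and Chac1 fell and Ddit3 rose, and in KO Sdf2l1 rose and Chac1 fell.

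Chac1 differed between the genotypes in the direction opposite to Sdf2l1. On HFD the 3 KO mice, at 8.84 to 9.68, were below the WT mice, at 10.83 to 11.05, and Chac1 fell by 1.53 in KO (SE 0.20, adjusted p = 0.00388), to 0.346 times the WT level. That call was lost in 1 of 24 alternatives, without the intensity trend (adjusted p = 0.0534). On ND the difference was −0.92 (adjusted p = 0.0731), with KO at 10.36 to 10.97 and WT at 11.41 to 11.64. It passed there with array weights (adjusted p = 0.0323), with only the ND arrays (adjusted p = 0.0391) and without KO HFD replicate 1 (adjusted p = 0.0185). Averaged over diets the difference was −1.22 ± 0.14 (adjusted p = 0.00152), and it passed in all 23 alternatives. Chac1 has 1 single-gene probe set, so no other could check this difference. The alternatives by probe set reuse the same Chac1 values. From the lowest mean level up, the groups were KO on HFD, KO on ND, WT on HFD and WT on ND, and KO on ND and WT on HFD overlapped. Atf4 itself differed by −0.11 between KO and WT (95% interval −0.29 to 0.07, adjusted p = 0.593).

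Across members, 2 of 10 passed in the averaged genotype effect, where 1.61% of all genes did. These were Sdf2l1, higher as were 0.899% of all genes, and Chac1, lower as were 0.714%. On HFD 2 of 10 passed, the same pair, against 0.732% of all genes. On ND 0 of 10 passed in limma, against 0.414% of all genes, and 3 had an unadjusted p under 0.05 (Hspa5, Sdf2l1 and Chac1). The diet effect was passed by 2 of 10 in KO (Atf4 and Chac1), against 4.54% of all genes, and by 3 of 10 in WT (Xbp1, Atf4 and Ddit3), against 6.06%. No member passed for a difference between the diet effects of KO and WT. For that interaction 0.141% of all genes passed in limma, and Chac1 was the 1 member with an unadjusted p under 0.05 (−0.62, 95% interval −1.22 to −0.01, adjusted p = 0.470). These comparisons share arrays, so their counts are not independent.

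Separation of the mice followed the calls only in part. For the diet, 4 of 10 members had no overlap between the groups in KO, where 26.5% of all genes had none, and 5 of 10 in WT, where 26.7% had none. For the genotype, 3 of 10 had none on HFD (Sdf2l1, Sesn2 and Chac1), against 19.4% of all genes, and 3 of 10 on ND (Hspa5, Sdf2l1 and Chac1), against 17.0%. Sesn2 read 4.34, 4.08 and 4.51 in KO on HFD, against 3.11, 3.60 and 3.72 in WT on HFD, and its difference of 0.83 did not pass (adjusted p = 0.403).

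By arm, the median averaged genotype difference was 0.34 over the 4 ER arm genes and −0.04 over the 6 Atf4 arm genes, against 0.02 over all genes tested. The median averaged diet difference was −0.18 in the ER arm and −0.22 in the Atf4 arm, against 0.06 over all genes. A median conceals the split within each arm. Xbp1 and Herpud1 followed the diet and Sdf2l1 the genotype in their calls, and in the Atf4 arm Ddit3 opposed Atf4 and Chac1. Over the 12 arrays, Hspa5 and Sdf2l1 had a Pearson correlation of 0.861 and Xbp1 and Atf4 of 0.842, whereas Ddit3 had −0.777 with Atf4 and −0.710 with Chac1. These arrays share the 4 groups, so the correlations describe group differences as well as mice.

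**Figure D4:**
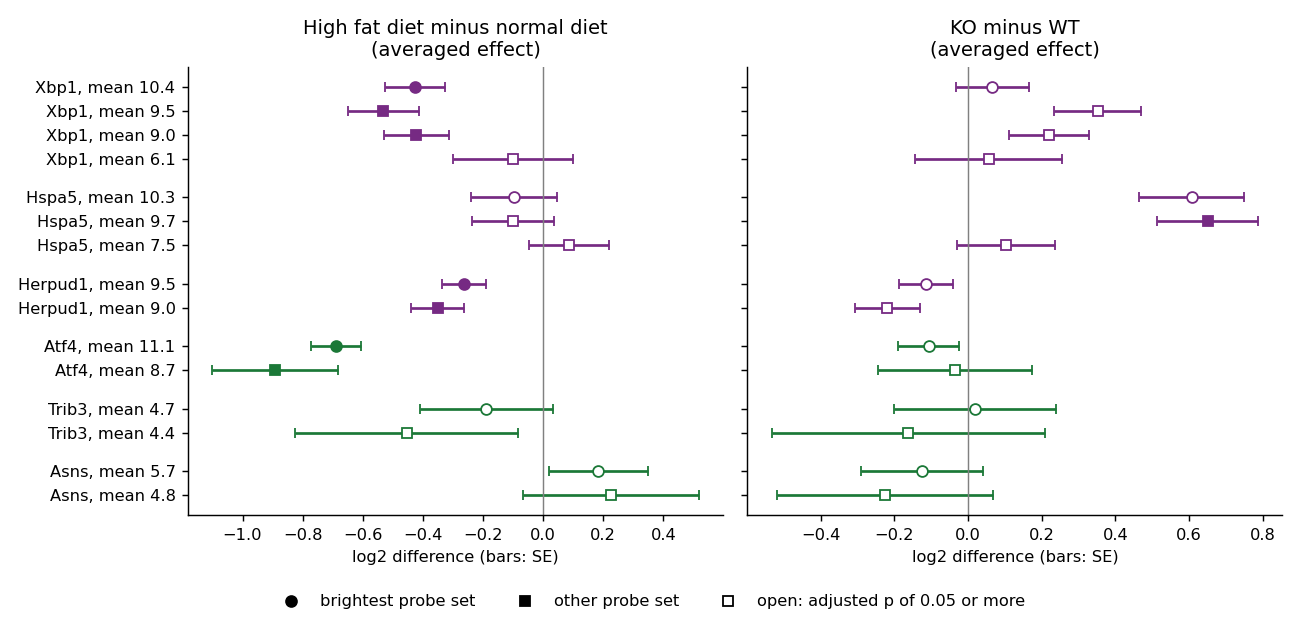
Log2 differences of every probe set past the filter for members with more than 1, high fat diet minus normal diet (left) and KO minus WT (right), with bars of 1 SE; circles are the brightest probe set of a gene and filled symbols passed an adjusted p of 0.05 over all 22518 probe sets. The Atf4, Herpud1 and brighter Xbp1 probe sets agree in sign for the diet, and the 2 brightest of Hspa5 for the genotype.

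The genes most like 3 members in pattern were drawn from all genes tested, by Pearson correlation over the 12 arrays. For Hspa5 they were Manf (0.956), Pmp22 (0.931) and Calu (0.906). For Ddit3 they were Samd9l (0.934), the fatty acid binding protein Fabp3 (0.913) and the peroxisomal enzyme Hsd17b4 (0.913). For Chac1 they were Spns2 (0.944), Washc2 (0.930) and the mitochondrial channel Vdac2 (0.919).

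Of 33 other ER folding and degradation genes tested, 3 rose and 4 fell with HFD, averaged over genotypes, and 26 did not pass. Over all genes 7.49% were higher and 6.19% lower in that comparison, and the list's count is close to these shares. Pdia4, a disulfide isomerase, rose by 0.77 (adjusted p = 0.0211), the ER stress-induced Creld2 rose by 0.51 (adjusted p = 0.0341) and the chaperone Hyou1 rose by 0.39 (adjusted p = 0.0462). Edem1, which marks glycoproteins for degradation, fell by 0.72 (adjusted p = 0.0111). The BiP co-chaperone Dnajb9 fell by 0.65 (adjusted p = 0.00242) and the ubiquitin ligase Syvn1 fell by 0.32 (adjusted p = 0.0297). Edem1 and Dnajb9, both known Xbp1 targets, also fell in WT alone (−1.25 and −0.84), as the 2 of 33 that passed there, where 6.06% of all genes did. In KO alone Derl3, an ER degradation factor that was also listed as a plasma cell marker, was the 1 gene of 33 past the threshold (1.54, adjusted p = 0.0458), where 4.54% of all genes passed.

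Between genotypes 27 of the 33 had a positive averaged difference, with a median of 0.20 against 0.02 over all genes, and 2 rose, 1 fell and 30 did not pass. Over all genes 0.899% were higher and 0.714% lower. The disulfide isomerase Pdia3 read 7.83 to 8.33 in KO on HFD and 7.73 to 8.001 in KO on ND, against 7.20 to 7.65 in WT on HFD and 7.39 to 7.46 in WT on ND (difference 0.52, adjusted p = 0.0299). Selenos, a selenoprotein of ER degradation, rose by 0.31 (adjusted p = 0.0268). Ube2j1, the ubiquitin-conjugating enzyme of the same machinery, fell by 0.58 (adjusted p = 0.00875), and on HFD alone it fell by 0.74 (adjusted p = 0.0277). Over both diets, 3 of the 33 were wholly higher in KO and 1 wholly lower, where 0.529% of all genes were wholly higher. Pdia3, Selenos and Ube2j1 are among these, and they were named because they passed. On ND 0 of 33 passed in limma, where 0.414% of all genes did, with 12 at an unadjusted p under 0.05.

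Among other Atf4 targets, the calls for the high fat diet were mostly falls. Averaged over genotypes, 12 of 35 tested fell, 1 rose and 22 did not pass, where 6.19% of all genes were lower and 7.49% higher. The median was −0.22, against 0.06 over all genes. The largest falls were in Ddit4, an inhibitor of mTORC1 (−3.02, adjusted p = 0.000797), the transcription factor Atf3 (−2.11, adjusted p = 0.0101) and Ppp1r15a (GADD34), the stress-induced subunit that dephosphorylates eIF2α (−1.79, adjusted p = 0.000380). In KO 2 rose and 6 fell, where 4.54% of all genes passed in either direction, and in WT 0 rose and 5 fell, where 6.06% passed. Phgdh and Psat1, enzymes of serine synthesis, were the 2 that rose in KO. Phgdh read 7.21 to 8.03 in KO on HFD, against 5.81 to 6.92 in KO on ND and 5.41 to 6.51 in WT on HFD. Phgdh rose by 1.41 with the diet in KO (adjusted p = 0.0329) and Psat1 by 1.13 (adjusted p = 0.0485), and on HFD they were higher in KO than in WT by 1.75 and 1.69 (adjusted p = 0.0345 and 0.0277).

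Macrophage, fibroblast and adipocyte markers were also high in the KO mice on HFD. There 2 of 7 macrophage, 3 of 6 fibroblast and 0 of 5 adipocyte markers rose against WT in limma (5 of the last at an unadjusted p under 0.05), where 0.732% of all genes passed in either direction. In the averaged genotype effect 3 of 6 fibroblast markers rose, where 0.899% of all genes did. Their part in the Phgdh, Psat1 and Sdf2l1 values was not tested. On ND the fibroblast sum was 8209 to 8659 in KO and 7701 to 8566 in WT, and the adipocyte sum was 7088 to 11187 in KO and 7544 to 9182 in WT. The fibroblast marker Col1a1 read 7.10 to 7.42 in KO on ND, against 6.59 to 6.89 in WT on ND, with no overlap (difference 0.58, adjusted p = 0.330). Of the 6 fibroblast markers on ND, it was the 1 wholly higher in KO, and 1 other was wholly lower. Among all genes tested 17.0% did not overlap there. Of the 35 Atf4 targets, 1 rose, 1 fell and 33 did not pass in the averaged genotype effect. Over all genes 0.899% were higher and 0.714% lower there. Phgdh rose by 1.15 (adjusted p = 0.0275) and the factor Cebpb fell by 0.40 (adjusted p = 0.0132). Slc7a11 and Fgf21 were below the filter, and Gdf15 had no single-gene probe set.

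Sensors and eIF2α control genes had few calls. Of 13 tested, 0 rose and 2 fell with the averaged diet effect, where 7.49% of all genes were higher and 6.19% lower. These were Ppp1r15a and its constitutive counterpart Ppp1r15b (−0.44, adjusted p = 0.0185). The kinase Eif2ak3 (PERK) was 0.58 higher in KO without passing (adjusted p = 0.134). In the averaged genotype effect 0 of 13 passed in limma, and 2 had an unadjusted p under 0.05. Of all genes 1.61% passed there, so a count of 0 is close to that share.

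The heat shock genes, a separate folding response, had calls for the diet and none for the genotype. The list holds mostly cytosolic genes, but also the mitochondrial Hspd1 and Hspe1, which did not pass for the averaged diet effect (−0.06 and −0.27). Averaged over genotypes 11 of 17 fell and 0 rose, where 6.19% of all genes were lower and 7.49% higher. The median was −0.71, against −0.18 in the ER arm and 0.06 over all genes. Dnajb1, an Hsp40 co-chaperone, fell by 3.30 (adjusted p = 0.000259) and the inducible Hsp70 gene Hspa1a fell by 2.85 (adjusted p = 0.000195). In the averaged genotype effect 0 of 17 passed in limma, 1 had an unadjusted p under 0.05 and the median was 0.02, against 0.34 in the ER arm. Of all genes 1.61% passed there, so the count of 0 is close to that share. Whether the lists differ from one another was not tested.

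**Figure D5:**
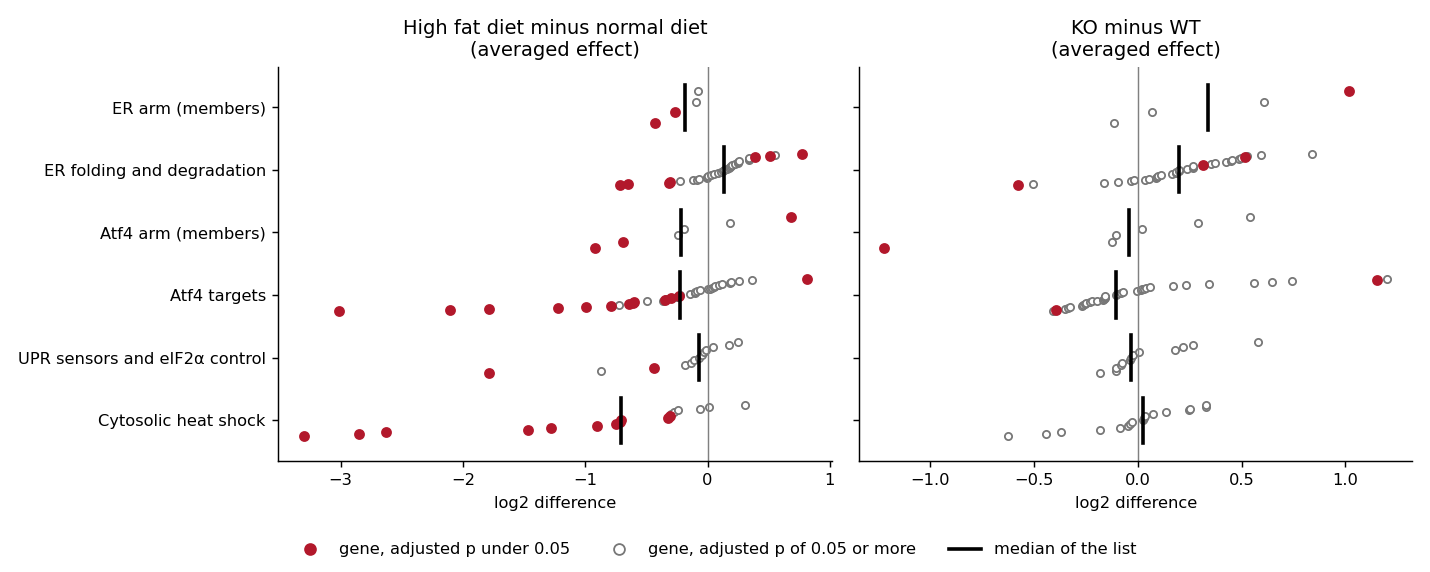
Log2 differences of the genes in each list, high fat diet minus normal diet (left) and KO minus WT (right), with filled red points past an adjusted p of 0.05 and a bar at each list's median. The diet panel shows falls in Atf4 targets (12 of 35) and heat shock genes (11 of 17), and the genotype panel shows 3 of 33 ER folding genes past the threshold.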

How the data were processed

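Muscle RNA of 12 mice was hybridised to 1-colour Affymetrix arrays. Per the submitters' processing notes the authors used MAS5, with no version stated in them, and the deposited table holds log2 signals. On the linear scale the mean without the top and bottom 2% was 100 on each array, so the values were used as deposited. Of 45037 probe sets that are not controls, 34945 carried 1 symbol in the platform annotation, 932 several and 9160 none. Genes were tested when the brightest probe set had a mean above the median of 3.78.

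One limma model (3.58.1, R 4.3.3) with an intensity trend was fitted over the 4 groups, with 7 contrasts, and p-values were adjusted by Benjamini-Hochberg over all 11345 genes, at a threshold of 0.05. Tested on simulated data (11345 genes, diet effect in WT), the fit recovered 29.9% of 1.5-fold, 65.7% of 2-fold and 90.9% of 4-fold changes. The simulation changed 67, 67 and 66 genes at these folds and gave 4 false calls. In the real data 687 genes passed for that effect. Other shares of changed genes were not simulated, so these rates may not carry over. The number of arrays limits the precision.

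The members and gene lists were chosen with earlier results of these data known. All members are named, with up to 3 passing genes per list, direction and contrast, or else the gene with the smallest p, and the 3 genes most like Hspa5, Ddit3 and Chac1; not every gene this allows is printed. Tables and figures used Python 3.11.15, pandas 2.3.3 and matplotlib 3.10.9.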

Additional observations from a re-analysis of the deposited data

Results flagged for a closer look

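Lgals3, the macrophage lectin galectin-3, was listed as a marker of other cells, and its diet effect differed between genotypes by an interaction test (log2 difference 3.06, KO minus WT). It rose by 2.45 with the high fat diet in KO, where it read 9.45 to 10.67 on HFD and 7.32 to 7.80 on ND. In WT it read 7.21 to 8.47 on HFD and 8.19 to 8.42 on ND.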

How the results depend on the processing

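No paired analysis was possible because the labels give each mouse its own number and the groups share none. Of 14 member differences past the threshold, recomputed 327 times in all, 271 values kept direction and call, 56 kept direction without passing, and 0 turned. In many of these the direction could not turn. Leaving out a mouse outside the groups compared does not change the difference. The settings that alter only the signal filter, the intensity trend or the arrays fitted also keep it. The count of members past the threshold in WT for the diet was 3, against 0 with the mean of all probe sets of a gene, 0 with the 3′ over 5′ covariate and 1 without the intensity trend. In KO it was 2, against 1 with the mean of all probe sets. Averaged over genotypes it was 5, against 2 with the mean of all probe sets and 2 with the covariate. For the genotype on ND it was 0, against 1 with array weights and 1 with only the groups compared. For the genotype on HFD it was 2, against 0 without the trend and 1 with quantile normalization, median centring, no signal filter, the filter at the 75th percentile, the mean of all probe sets, array weights or only the groups compared. For the averaged genotype effect it was 2, against 1 with the filter at the 75th percentile, where Sdf2l1 was not tested. The mean of all probe sets brings in dim ones of Atf4 (mean 0.42) and Ddit3 (2.37). Leaving out 1 mouse gave 1 to 4 for the diet in WT, 2 to 3 in KO and 4 to 5 averaged, 0 to 1 for the genotype on ND, 1 to 2 on HFD and 1 to 3 averaged, and 0 for the interaction. Median centring moved the median of all genes by −0.115 for the diet in KO, where Atf4 (−0.84) and Chac1 (−1.34) still passed. Fitting each probe set on its own was chosen after seeing the data.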
